A study of Mus musculus with 6 samples.

Results

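The genes described here are Snhg11, the RNA targeted by the antisense oligonucleotide (ASO) of the experiment, and 9 genes that lie near it on chromosome 2 of the mouse: Ralgapb, Slc32a1, Actr5, Ppp1r16b, Fam83d, Tgm2, Rprd1b, Tti1 and Vstm2l. They are 10 of the 55401 genes counted and were chosen by name and position, with earlier results of these data known. All 10 were among the 19969 genes with enough counts to be tested. RNA-seq was done on the dorsal hippocampus of 6 male WT mice aged 4 months, littermates of the Ts65Dn line that carry no trisomy. The Control-ASO group (3 mice) received a scrambled strand and the Snhg11-ASO group (3 mice) a strand against Snhg11. Both ASOs were 2′-MOE gapmers with a phosphorothioate backbone, injected into the dorsal dentate gyrus on both sides at 50 µg per hemisphere, and the tissue was taken after 3 days. The whole dorsal part of the hippocampus was sequenced, not the injected subregion alone, so every value is an average over cells that may have taken up different amounts of ASO. The comparison asks whether genes that flank the ASO target change together with it.

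Snhg11 is a small nucleolar RNA host gene, with snoRNAs of the H/ACA class in its introns. These small RNAs guide the conversion of uridine to pseudouridine in other RNAs. The spliced host transcript is a long noncoding RNA, which the paper found in the dentate gyrus in nuclei as well as in the cytoplasm. Some long noncoding RNAs act in cis, on genes beside their own locus, and others act elsewhere in the nucleus. A gapmer ASO pairs with its target RNA and recruits RNase H, which cuts the RNA and leaves the DNA of the locus in place.

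Snhg11 (ENSMUSG00000044349) is transcribed from the plus strand at chr2:158375638-158386145 (GRCm38, mm10), and GENCODE M21 lists it as protein-coding although it is known as a noncoding RNA. The nearest gene downstream in the group is Ralgapb, which starts 23.7 kb after the end of Snhg11, followed by Slc32a1 at 225 kb, Actr5 at 239 kb, Ppp1r16b at 279 kb and Fam83d at 382 kb, all on the plus strand. On the upstream side, Tgm2 lies 229 kb away on the minus strand, Rprd1b 243 kb away on the plus strand, Tti1 347 kb away on the minus strand and Vstm2l 431 kb away on the plus strand. Tti1 and Rprd1b face away from each other with 63 bp between their annotated starts. Rprd1b and Tgm2 overlap tail to tail by 15896 bp on opposite strands.

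Both snoRNA genes inside Snhg11 are shown here because they are the parts of the locus from which it takes its name, together with the 3 snoRNAs of the next host gene, Snhg17, which lies 14.1 kb upstream on the minus strand. The sequences are the annotated GENCODE M21 transcripts, 5′ to 3′ with T for U. Capitals mark the box H letters (ANANNA, the first match on the RNA strand that starts between bases 50 and 75) and the ACA within the last 10 bases.
Gm25187: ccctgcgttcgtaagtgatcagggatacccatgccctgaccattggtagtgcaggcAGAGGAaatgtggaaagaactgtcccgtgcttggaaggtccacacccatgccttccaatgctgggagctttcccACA
Gm25129: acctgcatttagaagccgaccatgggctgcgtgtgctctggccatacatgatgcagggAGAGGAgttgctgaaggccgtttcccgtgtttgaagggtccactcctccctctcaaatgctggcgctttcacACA
Gm24411: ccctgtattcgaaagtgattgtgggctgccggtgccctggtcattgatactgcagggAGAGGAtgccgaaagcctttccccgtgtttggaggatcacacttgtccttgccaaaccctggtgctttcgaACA
Gm26003: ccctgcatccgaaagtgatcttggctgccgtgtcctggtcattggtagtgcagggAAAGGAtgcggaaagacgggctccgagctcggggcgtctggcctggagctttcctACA
Gm23925: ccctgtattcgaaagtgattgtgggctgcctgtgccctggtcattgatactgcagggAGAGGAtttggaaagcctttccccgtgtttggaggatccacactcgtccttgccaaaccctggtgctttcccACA
Gm25187 (chr2:158378222-158378354) and Gm25129 (chr2:158379534-158379666) are on the plus strand within Snhg11, and their sequences were identical at 68.4% of aligned positions. Gm24411 (chr2:158356424-158356554), Gm26003 (chr2:158358360-158358472) and Gm23925 (chr2:158359798-158359929) are on the minus strand within Snhg17. Between the host genes the identity ranged from 58.7% (Gm26003 and Gm25129) to 74.1% (Gm23925 and Gm25129), and the closest pair was Gm24411 and Gm23925 of Snhg17 with 93.9%. Of the 717 annotated mouse snoRNA transcripts of these lengths, 51.9% held both sets of letters in the same places.

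The libraries held between 28951250 and 43997537 read pairs counted on the sense strand of genes, which was 96.2% to 96.8% of the pairs counted on either strand. Markers of dentate granule cells (7 genes) summed to between 343 and 476 CPM and markers of CA pyramidal cells (8 genes) to between 501 and 696 CPM, so defining genes of the labelled tissue were present in every sample. Markers of thalamus and cortex (7 genes) summed to 130 to 195 CPM in Control-ASO and 132 to 162 CPM in Snhg11-ASO samples. Of these, 2 had an unadjusted p under 0.05 in edgeR, 1 of them lower (beside 8.11% of all genes), and their part in the results was not tested. CPM are the counts of a gene scaled to the size of its library and to TMM factors. Snhg11-ASO replicate 1 stood apart. It lay outside the range of the other 5 samples for 65.8% of all genes tested, against 20.1% to 32.5% for each other sample, and it correlated less with the others across genes (Spearman 0.955 to 0.960) than they did with each other (0.979 to 0.991). Of the 9 neighbours, 5 had replicate 1 of Snhg11-ASO outside that range, so log2 fold changes without it are given below for the 10 genes and for some of the genes around them. Choroid plexus markers (7 genes, none at 0) summed to 38.4 to 1936 CPM in the Control-ASO samples and to 70.1 to 1318 CPM in the Snhg11-ASO samples, and their part in the results below was not tested.

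Snhg11 itself was lower in the samples that received the ASO against it. In replicates 1 to 3 of Control-ASO its level was 551, 436 and 209 CPM, and in those of Snhg11-ASO 139, 65.4 and 69.4 CPM. Each Snhg11-ASO sample was lower than each Control-ASO sample (Snhg11-ASO lower without overlap in 7.7% of all genes), with replicate 1 the least depleted at 34.9% of the Control-ASO mean and the others at 16.4% and 17.4%. The Control-ASO samples differed among themselves by more than 2-fold, from 52.4% to 138% of their own mean. On average Snhg11 went from 398 ± 174 to 91.3 ± 41.4 CPM (SD, n = 3 each), with a log2 fold change of -2.13 (SE 0.43, 95% interval -3.15 to -1.10). The unadjusted p was 0.00172, the 87th smallest of all genes tested, of which 4.43% were lower at an unadjusted p under 0.05, and the adjusted p was 0.395 (edgeR quasi-likelihood test, Benjamini-Hochberg), so the difference did not pass the threshold of 0.05 in this fit. DESeq2 gave an adjusted p of 5.3e-05 for a log2 fold change of -2.12. Without Snhg11-ASO replicate 1 the value in edgeR was -2.56, and without Control-ASO replicate 1 it was -1.83. The exact permutation test over samples gave its smallest possible p for 3 against 3, 0.1.

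Per kilobase of exonic sequence, Snhg11 was also the most abundant of the 10 genes in Control-ASO samples, at 46.8 ± 20.4 CPM per kb (SD, n = 3). Ppp1r16b (15.9 ± 1.26 CPM per kb), Ralgapb (14.6 ± 0.965) and Vstm2l (10.2 ± 2.15) came next, and the values of Ppp1r16b and Ralgapb overlapped. Slc32a1 (6.02 ± 1.13), Tti1 (4.71 ± 0.285), Rprd1b (4.07 ± 0.258) and Tgm2 (3.07 ± 0.751) formed a lower group in which Slc32a1 overlapped with Tti1. Actr5 (1.80 ± 0.178) and Fam83d (0.441 ± 0.0219) were the lowest on this scale and stood clear of each other. In the Snhg11-ASO samples Snhg11 was at 10.7 ± 4.86 CPM per kb, with values of 7.68 to 16.3. The highest, in replicate 1, fell within the range of Ppp1r16b (15.5 to 18.8) and above those of Ralgapb (12.9 to 14.3) and Vstm2l (10.4 to 12.3). In the other replicates Snhg11 was below every value of these genes.

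**Figure D1:**
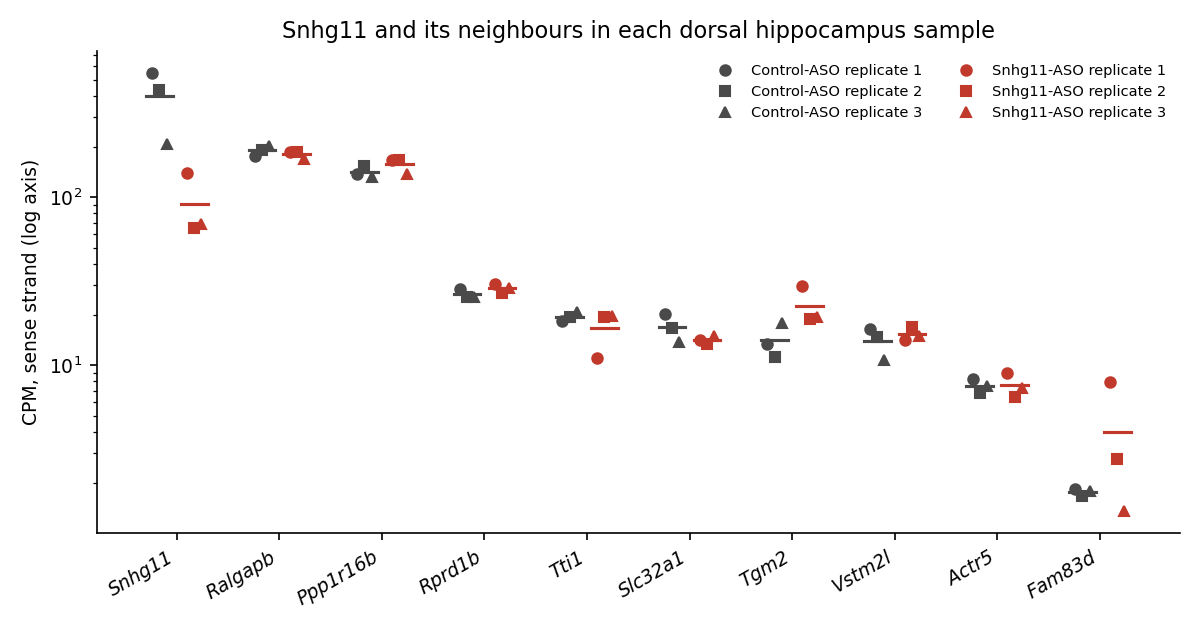
Level of Snhg11 and its 9 neighbours in each sample, in CPM on a log axis, with Control-ASO samples in grey and Snhg11-ASO samples in red, marker shapes for replicates 1 to 3 and bars for the group means. The 3 Snhg11-ASO samples of Snhg11 (65.4 to 139 CPM) lie below the Control-ASO samples (209 to 551 CPM), the groups of Tgm2 are apart in the other direction, and Fam83d is high in Snhg11-ASO replicate 1.

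Of the snoRNA genes within Snhg11, Gm25129 could be tested and Gm25187 could not. Gm25129, which lies in an intron of 3 annotated Snhg11 transcripts, was counted 62, 64 and 54 times in Control-ASO and 53, 68 and 53 times in Snhg11-ASO replicates. These raw counts are not scaled to the libraries, each of which was larger with Snhg11-ASO than any with Control-ASO. On the CPM scale the groups overlapped narrowly (1.60 to 2.11 and 1.21 to 1.63). Gm25129 had a log2 fold change of -0.41 (SE 0.24, 95% interval -0.98 to 0.17, adjusted p = 0.709). Gm25187 lies inside exon 2 of 1 annotated Snhg11 transcript and was listed with 0 counts in all 6 samples. The counting leaves out pairs that fall on 2 genes of the same strand, so this 0 says nothing of its level. The paper reports a reduced expression of both hosted snoRNAs after the knockdown, by a measure that was not repeated here. Pairs counted for Gm25129 may also come from unspliced Snhg11 RNA, so its value need not be that of the mature snoRNA.

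None of the 9 neighbours changed by the adjusted test, where 0 of all genes passed (0.0%), and the smallest adjusted p among them was 0.571. At an unadjusted p under 0.05 there was 1 neighbour, Tgm2, while 8.11% of all genes tested had such a p. Groups that did not overlap were also found for 1 of the 9, again Tgm2, against 15.4% of all genes (7.73% with Snhg11-ASO higher). In DESeq2, where 1.28% of all genes passed the adjusted threshold, 0 of the 9 did, and 2 had an unadjusted p under 0.05 (Tgm2, 0.0125, and Fam83d, 0.0479), beside 9.17% of all genes. The fold changes pointed both ways, 3 lower and 6 higher, with a median log2 fold change of 0.12 beside 0.01 for all genes, and a median size regardless of sign of 0.16 beside 0.18 for all genes. For 8 of the 9 the 95% interval held 0. For 7 of the 9, all but Tgm2 and Fam83d, the interval lay within a change of 1 on the log2 scale in either direction, so a change of the size seen for Snhg11 lay outside these intervals. The lower bounds of all 9, of which the lowest was -0.77 for Tti1, were above the upper bound of Snhg11 (-1.10), although the difference between genes was not itself tested.

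Downstream, Ralgapb (ENSMUSG00000027652, chr2:158409848-158499253) encodes the regulatory beta subunit of the RalGAP complexes, which switch off the Ral GTPases. The nearest neighbour of Snhg11 tested on that side, it had 176, 192 and 201 CPM with Control-ASO and 185, 186 and 168 CPM with Snhg11-ASO. The Snhg11-ASO values fell among or just below the Control-ASO values. With 5188 to 7787 read pairs per sample, its log2 fold change of -0.08 (SE 0.09, 95% interval -0.30 to 0.14, adjusted p = 0.839) had the smallest SE of the group. With a sample left out it ranged from -0.14 (without Control-ASO replicate 1) to -0.034 (without Snhg11-ASO replicate 3), and was -0.10 without Snhg11-ASO replicate 1.

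Slc32a1 (ENSMUSG00000037771, chr2:158610767-158615748) encodes the vesicular GABA transporter, which loads the inhibitory transmitter into synaptic vesicles and marks inhibitory neurons. Control-ASO samples had 20.1, 16.7 and 13.7 CPM and Snhg11-ASO samples 14.1, 13.3 and 14.8 CPM. The Snhg11-ASO samples lay close together, near the lowest Control-ASO sample and partly below it. The log2 fold change was -0.26 (SE 0.16, 95% interval -0.64 to 0.13, adjusted p = 0.723), and it was -0.12 without Control-ASO replicate 1, the highest sample, -0.39 without Control-ASO replicate 3, the lowest of that group (unadjusted p = 0.0489 in edgeR), and -0.25 without Snhg11-ASO replicate 1. Of 12 interneuron markers tested, none at 0, 10 had a log2 fold change below 0 (beside 48.3% of all genes), 3 were lower at an unadjusted p under 0.05 (beside 4.43%) and 0 passed the adjusted threshold, while Npy (0.24) and Cck (0.040) were above 0. Their sum was 751 to 827 CPM in Control-ASO and 629 to 717 CPM in Snhg11-ASO samples. Their part in the value of Slc32a1 was not tested, and in bulk tissue fewer cells of a type and less RNA per cell cannot be told apart.

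Actr5 (ENSMUSG00000037761, chr2:158624888-158639211), an actin-related subunit of the INO80 chromatin remodelling complex, was at 8.29, 6.81 and 7.48 CPM with Control-ASO and 8.94, 6.44 and 7.35 CPM with Snhg11-ASO. The groups overlapped, and the log2 fold change was 0.01 (SE 0.18, 95% interval -0.42 to 0.44, adjusted p = 0.992). Its sign changed with the scaling and the samples left out, from -0.12 without Snhg11-ASO replicate 1 to 0.11 without Snhg11-ASO replicate 2. Ppp1r16b (ENSMUSG00000037754, chr2:158665398-158766334), a membrane-associated regulatory subunit of protein phosphatase 1, was at 137, 153 and 132 CPM and at 166, 167 and 137 CPM. Replicates 1 and 2 of Snhg11-ASO were above all Control-ASO samples and replicate 3 was within their range. This gave a log2 fold change of 0.16 (SE 0.11, 95% interval -0.11 to 0.42, adjusted p = 0.749), which was 0.24 without Snhg11-ASO replicate 3 and 0.11 without Snhg11-ASO replicate 1.

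Fam83d (ENSMUSG00000027654, chr2:158768093-158786637) encodes a protein that recruits casein kinase 1 to the mitotic spindle, and it was the least abundant of the 10. Its level with Control-ASO was 1.84, 1.66 and 1.78 CPM (54, 56 and 60 read pairs). With Snhg11-ASO it was 7.95, 2.78 and 1.35 CPM (303, 116 and 59 read pairs). Replicate 1 of Snhg11-ASO was at 451% of the Control-ASO mean, replicate 2 was above every Control-ASO sample and replicate 3 below them all. The log2 fold change was 1.19 (SE 0.60, 95% interval -0.24 to 2.61, adjusted p = 0.669). Without Snhg11-ASO replicate 1 it was 0.23 with an unadjusted p of 0.508 from the same test in edgeR. Without Snhg11-ASO replicate 3 it was 1.60, with an unadjusted p of 0.0115 in edgeR and an adjusted p of 0.0858 in DESeq2.

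Upstream, Tgm2 (ENSMUSG00000037820, chr2:158116402-158146436) encodes transglutaminase 2, an enzyme that crosslinks proteins and is made in endothelial cells, astrocytes and other cells of the brain. With Control-ASO it had 13.4, 11.1 and 17.9 CPM and with Snhg11-ASO 29.6, 18.8 and 19.3 CPM. Every Snhg11-ASO value was above every Control-ASO value, replicates 2 and 3 by little and replicate 1 by the most. The mean went from 14.1 ± 3.46 to 22.6 ± 6.09 CPM (SD, n = 3 each). The log2 fold change was 0.67 (SE 0.25, 95% interval 0.09 to 1.26), with an unadjusted p of 0.0293, an adjusted p of 0.571 and an exact permutation p of 0.1. It was 0.43 without Snhg11-ASO replicate 1 (unadjusted p = 0.0671 in edgeR), 0.62 without Control-ASO replicate 1 (unadjusted p = 0.0835) and 0.53 without Control-ASO replicate 2 (unadjusted p = 0.0942). It was 0.87 without Control-ASO replicate 3 (unadjusted p = 0.0130), and 0.79 and 0.77 without Snhg11-ASO replicate 2 or 3 (unadjusted p = 0.0264 and 0.0305, edgeR). Summed markers of endothelial and mural cells (7 genes, none at 0) were 203 to 246 CPM in Control-ASO and 203 to 232 CPM in Snhg11-ASO samples, and those of astrocytes (6 genes, none at 0) were 1178 to 3083 and 1523 to 3655 CPM. The sums hide differences between genes. In Snhg11-ASO replicate 1, Cldn5, Flt1, Pecam1 and Pdgfrb were the highest of all samples and Ly6c1, Slco1a4 and Rgs5 the lowest. Of the astrocyte markers, Aldh1l1, Slc1a3, Gja1 and S100b were lowest in that sample, while Gfap and Aqp4 were not. The part of these cells in the value of Tgm2 was not tested.

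Rprd1b (ENSMUSG00000027651, chr2:158028497-158132297) encodes a protein that binds the C-terminal domain of RNA polymerase II, and Tti1 (ENSMUSG00000027650, chr2:157981803-158028433), which starts 63 bp from it on the other strand, a subunit of the TTT complex that stabilises the kinases related to phosphatidylinositol 3-kinase. Rprd1b was at 28.3, 25.3 and 25.6 CPM with Control-ASO and 30.2, 26.8 and 28.8 CPM with Snhg11-ASO, with overlapping groups and a log2 fold change of 0.12 (SE 0.11, 95% interval -0.13 to 0.36, adjusted p = 0.799), which was 0.075 without Snhg11-ASO replicate 1. Tti1 was at 18.4, 19.3 and 20.7 CPM with Control-ASO and 10.96, 19.4 and 19.6 CPM in Snhg11-ASO samples. Replicate 1 of Snhg11-ASO alone was low, and the others sat within the Control-ASO range. The log2 fold change of Tti1 was -0.23 (SE 0.23, 95% interval -0.77 to 0.32, adjusted p = 0.823), and without that sample it was 0.0023. In Snhg11-ASO replicate 1 the pair of genes that share this start region thus stood on opposite sides, Rprd1b at 114% of its Control-ASO mean and Tti1 at 56.3%.

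Vstm2l (ENSMUSG00000037843, chr2:157914653-157944719) encodes a secreted protein with an immunoglobulin-like domain and was the farthest of the neighbours. It was at 16.4, 14.7 and 10.7 CPM with Control-ASO and 14.1, 16.8 and 14.9 CPM with Snhg11-ASO. The groups overlapped, with Control-ASO replicate 3 the lowest. This gave a log2 fold change of 0.13 (SE 0.18, 95% interval -0.30 to 0.56, adjusted p = 0.870) and -0.033 without that sample, 0.26 without Control-ASO replicate 1 and 0.19 without Snhg11-ASO replicate 1.

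**Figure D2:**
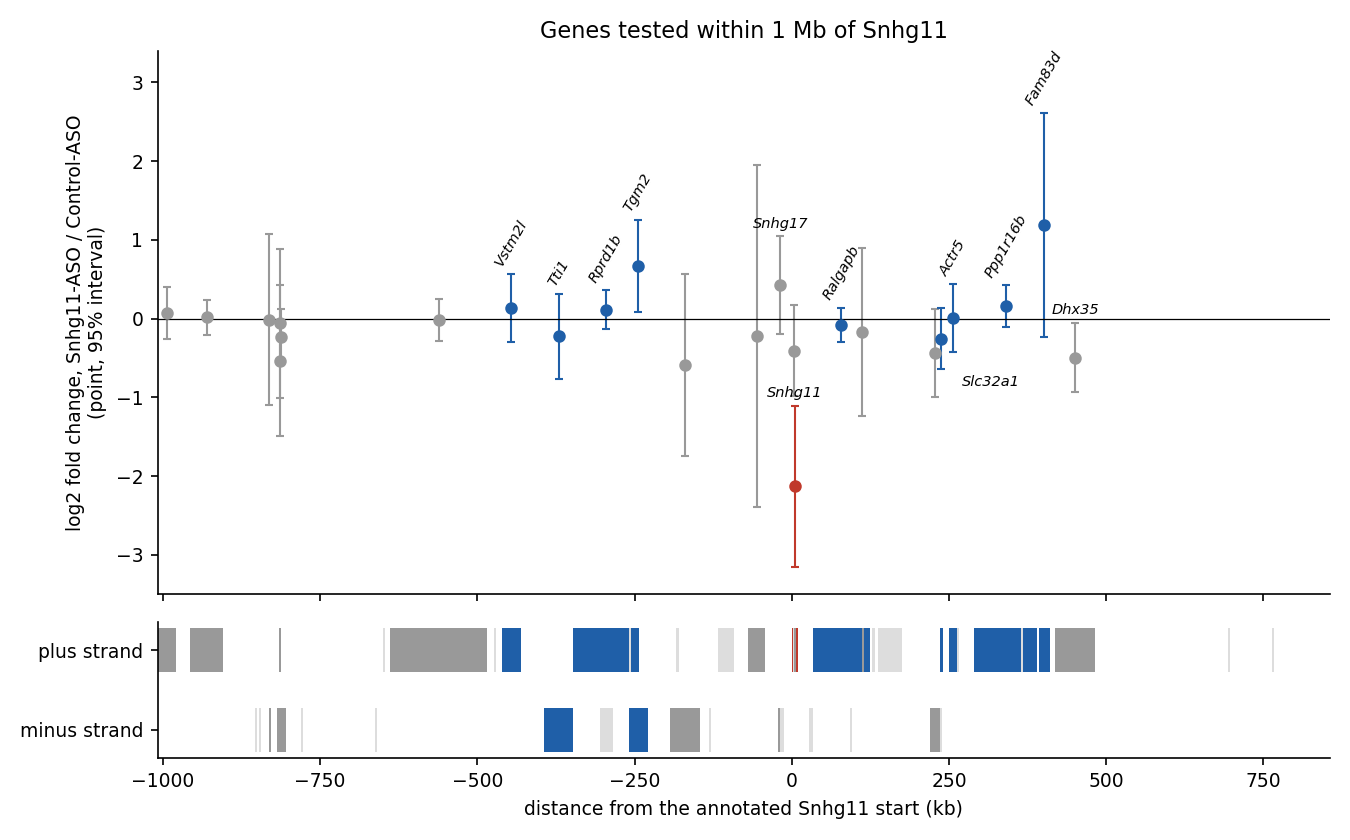
Upper panel, log2 fold change of Snhg11-ASO against Control-ASO with its 95% interval for the genes tested within 1 Mb of Snhg11, placed by the distance of the gene's middle from the annotated start of Snhg11 in kb, with Snhg11 in red, its 9 neighbours in blue and other genes in grey. Lower panel, all annotated genes of the window by strand, the palest with too few counts to be tested. Snhg11, at -2.13, lies apart from the others, which surround 0 on both sides, with the intervals of Tgm2 and Dhx35 not reaching 0.

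**Figure D3:**
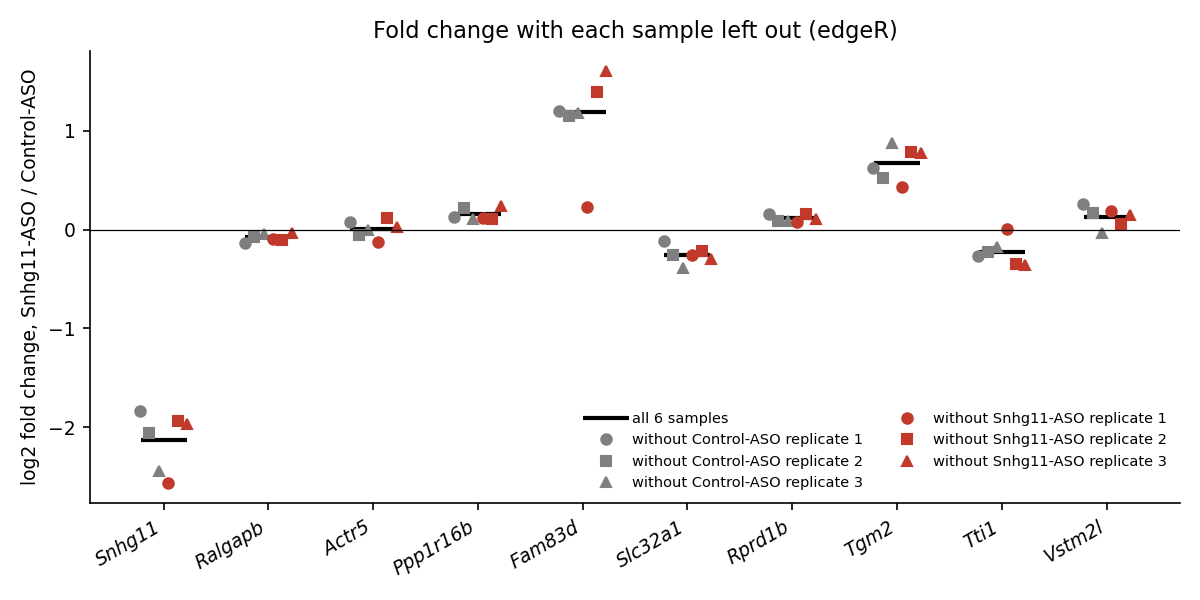
Log2 fold change of the 10 genes in edgeR with all 6 samples (black bars) and with each sample left out in turn (grey for Control-ASO, red for Snhg11-ASO samples). Snhg11 stays between -2.56 and -1.83, Fam83d drops from 1.19 to 0.23 without Snhg11-ASO replicate 1, and Tti1 goes from -0.23 to 0.0023.

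The 9 genes are not all that lie in the region. Within 1 Mb on each side of Snhg11, 47 other genes are annotated besides its own snoRNA genes, of which 12 had 0 counts in every sample, 13 had too few counts and 22 were tested. Of the 22, 13 were lower and 9 higher, 0 passed the adjusted threshold in edgeR or DESeq2, and the median log2 fold change was -0.04. Groups that did not overlap were found for 2 of the 22 (9.09%, beside 15.4% of all genes), Tgm2 and Dhx35, which were also the 2 with an unadjusted p under 0.05 (beside 8.11% of all genes). Dhx35, an RNA helicase gene 409 kb downstream, was at 18.8, 17.9 and 16.7 CPM with Control-ASO and 9.42, 14.9 and 13.5 CPM with Snhg11-ASO, with Snhg11-ASO replicate 1 the lowest. Its log2 fold change was -0.49 (SE 0.19, 95% interval -0.94 to -0.05, unadjusted p = 0.0331, adjusted p = 0.582 in edgeR). Without that sample it was -0.32 (SE 0.10, unadjusted p = 0.0177, adjusted p = 0.422 in edgeR). Without Control-ASO replicate 1 it was -0.46 (unadjusted p = 0.0928 in edgeR). The sign was the same in all 18 alternatives.

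Within 250 kb, 10 of 23 annotated genes were tested, 6 lower and 4 higher, with a median log2 fold change of -0.13. The closest of all was Snhg17, the other snoRNA host gene. It was at 12.1, 11.4 and 9.94 CPM with Control-ASO and 21.3, 13.02 and 10.6 CPM with Snhg11-ASO, highest in replicate 1 of Snhg11-ASO, with replicate 3 within the Control-ASO range. Its log2 fold change was 0.42 (SE 0.26, 95% interval -0.20 to 1.05, adjusted p = 0.713). It was 0.08 without Snhg11-ASO replicate 1. Without Snhg11-ASO replicate 3 it was 0.62 (unadjusted p = 0.0408 and adjusted p = 0.594 in edgeR). Gm23925, Gm24411 and Gm26003, its snoRNA genes, had 0 counts in all samples. They lie within Snhg17 on the same strand. The counting leaves out pairs that fall on several genes of the same strand, so these counts may say nothing of their level.

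The remaining tested genes within 250 kb were D630003M21Rik, Lbp, Gm24379 and Gm14204. D630003M21Rik was at 3.98, 5.08 and 4.51 CPM with Control-ASO and 0.997, 3.68 and 4.31 CPM with Snhg11-ASO, low in Snhg11-ASO replicate 1 (log2 fold change -0.59, and -0.18 without it). Lbp, the gene of the lipopolysaccharide-binding protein, spread from 1.01 to 12.1 CPM within Control-ASO alone, and its log2 fold change of -0.22 had a 95% interval from -2.39 to 1.96. Without Snhg11-ASO replicate 1 it was -1.24, and without Control-ASO replicate 1 it was 0.28. Lbp had 12.1, 1.01 and 9.50 CPM with Control-ASO and 13.1, 4.26 and 2.11 CPM with Snhg11-ASO, beside 1752, 12.9 and 1126 CPM and 1192, 85.4 and 37.7 CPM of the choroid plexus gene Ttr, whose part was not tested. Gm14204, a noncoding gene whose start lies 43 bp from that of Slc32a1 on the other strand, had a log2 fold change of -0.44 (SE 0.24, adjusted p = 0.682) beside the -0.26 of Slc32a1. The small RNA gene Gm24379 inside Ralgapb was counted at most 19 times in a sample. Bpi, Adig, Arhgap40, Gm14200, Gm14205 and 1700060C20Rik were counted between 0 and 10 times in any sample, and Mir7685, Gm14201 and Gm14202 were listed at 0.

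No trend with distance from Snhg11 was visible in the medians. Under 100 kb away the median log2 fold change of 3 genes was -0.08, for those at 100 to 250 kb (7 genes) -0.17, at 250 to 500 kb (6 genes) 0.06, and at 500 kb to 1 Mb (6 genes) -0.04. At 1 to 5 Mb the median of 92 genes was 0.05, for 1348 genes farther along chromosome 2 it was 0.005, and for 18481 genes on other chromosomes 0.01. With 3 to 7 genes each, the near bins carry little precision.

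**Figure D4:**
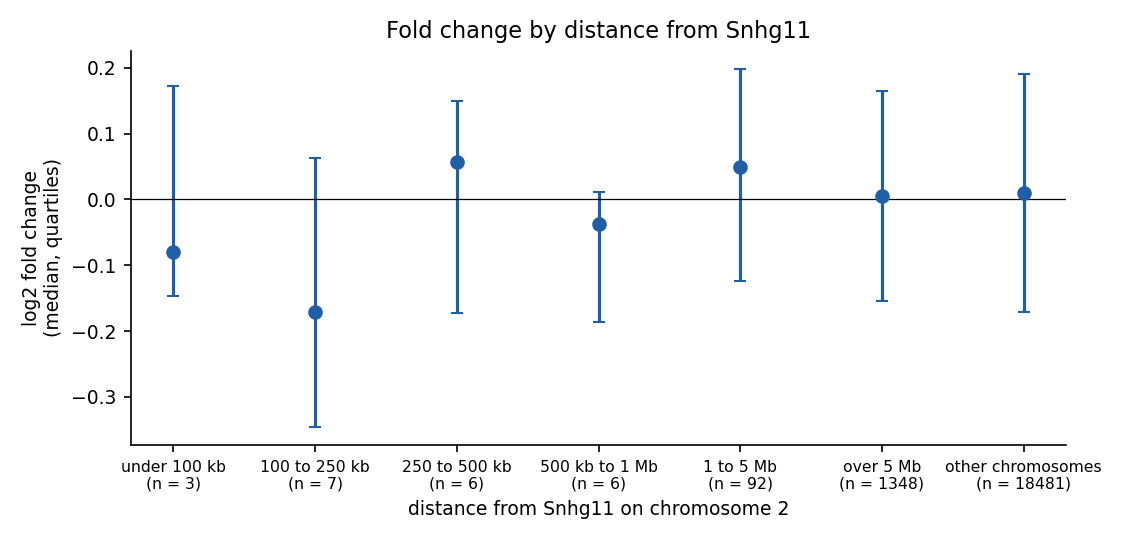
Median log2 fold change of Snhg11-ASO against Control-ASO (points) and quartiles (bars) of the genes tested, by distance from Snhg11 on chromosome 2 and for the other chromosomes, with the number of genes in each bin. Snhg11 and its snoRNA genes are left out of the bins, and the medians lie between -0.17 and 0.06.

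Reads on the strand opposite to each gene were examined for antisense transcripts of the locus. For Snhg11 there were 11, 6 and 7 antisense read pairs with Control-ASO and 5, 0 and 3 with Snhg11-ASO, which was 0.0694% and 0.0644% of its pairs on either strand (means of 3 samples, exact permutation p = 0.8). Antisense pairs thus stayed under 0.1% of the Snhg11 signal in every sample. Among the neighbours Rprd1b had the largest antisense share, 4.16% to 9.78% over the 6 samples. It had 37, 37 and 71 such pairs with Control-ASO and 125, 67 and 76 with Snhg11-ASO, or 5.34% and 7.04% on average (exact permutation p = 0.5), and its 3′ part overlaps Tgm2, whose sense strand is its antisense strand. Tgm2 had 42 antisense pairs in Snhg11-ASO replicate 1 and 7 or fewer in every other sample. In the other 7 neighbours the share was at most 0.737% in a sample, and Fam83d had 0 antisense pairs in all 6. The exact permutation p was 0.3 or more for each of the other 9 genes. Outside the group, D630003M21Rik had an antisense share of 30.9% in Snhg11-ASO replicate 1 (17 antisense and 38 sense pairs). In every other sample that share was at most 1.05% (exact permutation p = 0.5 between the groups).

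Complexes, families and pathways of the neighbours, and the proteins of H/ACA snoRNA particles, were described with 10 lists of 70 other genes, of which 63 were tested. Among them 32 were lower and 31 higher, 0 passed the adjusted threshold in edgeR, 7 had an unadjusted p under 0.05 (11.1%, beside 8.11% of all genes) and 12 had groups that did not overlap (19.0%, beside 15.4%). In DESeq2 1 of the 63 passed, Ppp1r12a, beside 1.28% of all genes. Ppp1r12a encodes a targeting subunit of myosin phosphatase and thus of the phosphatase that Ppp1r16b also binds. It was at 155, 162 and 159 CPM with Control-ASO and 115, 116 and 103 CPM with Snhg11-ASO, all of the latter lower, with a log2 fold change of -0.52 (SE 0.09, adjusted p = 0.308 in edgeR and 0.00011 in DESeq2).

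Partners of Ralgapb were 3 lower and 1 higher. Ralgapa1, a catalytic alpha subunit that pairs with the Ralgapb protein, was at 296, 330 and 315 CPM with Control-ASO and 238, 270 and 233 CPM with Snhg11-ASO, without overlap (log2 fold change -0.34, SE 0.10, unadjusted p = 0.00944, adjusted p = 0.498). Genes that make, reclaim or break down GABA, the cargo of Slc32a1, had a log2 fold change below 0 in 6 of 6 cases (beside 48.3% of all genes), with a median of -0.38. An unadjusted p under 0.05 was found for 2 of them (beside 8.11% of all genes), and 0 passed the adjusted threshold. Gad1 and Gad2 of this list are also among the interneuron markers above. Abat, which encodes GABA transaminase, had a log2 fold change of -0.36 (SE 0.11, adjusted p = 0.522). The largest fold change in that list was the astrocytic transporter Slc6a11 at -0.57 (SE 0.39), with 17.9 CPM in Snhg11-ASO replicate 1 and 49.8 to 73.3 CPM in the other samples.

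In the INO80 list of Actr5, 5 of 13 genes were lower and 8 higher, and Ino80c had an unadjusted p under 0.05 at a log2 fold change of 0.34 (SE 0.13, adjusted p = 0.574). The polymerase II factors around Rprd1b had a log2 fold change above 0 in 6 of 6 cases (beside 51.7% of all genes) with a median of 0.14, and 0 had an unadjusted p under 0.05. Polr2a, the largest subunit of the polymerase, was highest with 0.65 (SE 0.36), at 115 CPM in Snhg11-ASO replicate 1 and 41.5 to 48.9 CPM in all others. The 8 genes of the TTT list of Tti1 (largest Prkdc, -0.22), the 6 proteins of H/ACA particles (largest Naf1, -0.33) and the 2 relatives of Vstm2l (largest Vstm2b, -0.22) had 0 genes at an unadjusted p under 0.05.

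Among the other transglutaminases, Tgm1 was at 3.09, 14.4 and 2.43 CPM with Control-ASO and 19.5, 24.4 and 29.7 CPM with Snhg11-ASO. The groups did not overlap, and the log2 fold change was 1.88 (SE 0.66, unadjusted p = 0.0242, adjusted p = 0.558). F13a1, the A subunit of coagulation factor XIII and a gene of macrophages, had the largest fold change of the list, 3.00 (SE 1.43), from 1 sample: 69.5 CPM in Snhg11-ASO replicate 1 and 1.69 to 5.23 CPM in the other 5. Markers of microglia and macrophages (6 genes, none at 0) summed to 167 to 298 CPM in Control-ASO and to 95.6 to 284 CPM in Snhg11-ASO samples. In the list of FAM83 genes and spindle partners, 3 of 6 tested genes were lower and 3 higher. Csnk1a1, the kinase that FAM83 proteins bind, had a log2 fold change of 0.24 (SE 0.09, unadjusted p = 0.0404, adjusted p = 0.592), and the largest was Kif22 at 0.52 (SE 0.35).

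**Figure D5:**
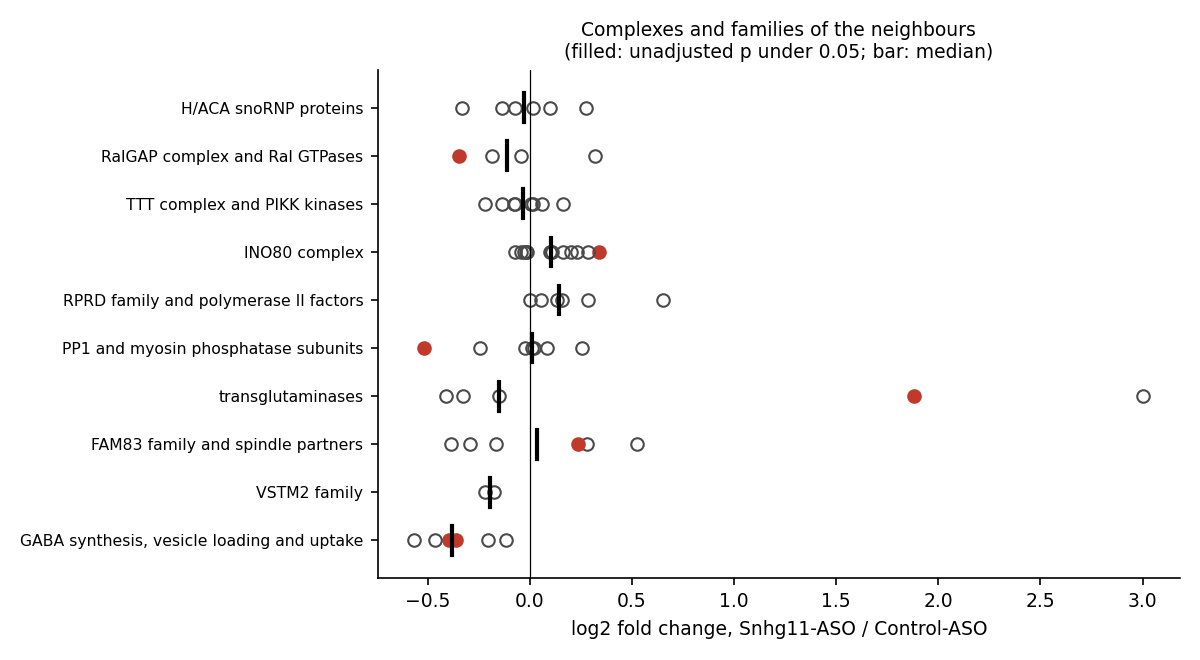
Log2 fold change of Snhg11-ASO against Control-ASO for the 63 tested genes of the 10 lists of complexes, families and pathways, 1 circle a gene, filled where the unadjusted p was under 0.05, with a bar at the median of each list. The medians lie between -0.38 (GABA genes) and 0.14 (polymerase II factors), and the 2 circles far to the right are Tgm1 (1.88) and F13a1 (3.00).

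Among the 5 genes whose profile over the 6 samples was most like that of Snhg11, by the distance between log2 CPM values centred on each gene's mean, were Gm5801, Mir758, AC115117.1 and Gm43830. These 4 were all under 4 CPM in every sample, with distances of 1.22 to 1.37. The neighbours were spread over the order of 19968 genes, from 1339 for Slc32a1 over 5086 for Actr5 and 10260 for Rprd1b to 18849 for Fam83d.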

How the data were processed

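Libraries were made with the TruSeq Stranded Total RNA kit from 6 dorsal hippocampi, 3 per group, grouped by their sample titles. The authors deposited raw counts of read pairs per gene and strand, as STAR writes them (STAR 2.5.2a and GRCm38/mm10 per the submitters' processing notes). The paper's methods name another counter and the removal of 1 unnamed Snhg11-ASO sample, while all samples were kept here. STAR leaves out pairs that map to several places or to several genes, and these, with pairs on no gene, were 43.5% to 51.4% of each file.

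Counts on the reverse strand were used. Symbols and positions came from GENCODE M21, which matched 55141 of 55401 gene identifiers. Genes were filtered with filterByExpr (minimum count 10), scaled with TMM and tested with edgeR 4.0.16 (R 4.3.3, quasi-likelihood, Benjamini-Hochberg over 19969 genes, threshold 0.05). The common biological coefficient of variation was 0.266. SEs came from each fold change and its F statistic, and intervals are 95% intervals of the t distribution with the fit's degrees of freedom. With 3 against 3 samples an exact two-sided permutation test cannot go below 0.1. The scripts were tested on simulated counts. DESeq2 1.42.0, other scalings, both strands, other filters, a replicate block, offsets for gene span and leaving out each sample were alternatives, and DESeq2 without each Snhg11-ASO sample was added after the data were seen. Same-numbered samples deviated together (correlations 0.297, 0.179 and 0.103, all over 0.1), which met the limit set for pairing, although Control-ASO replicate 2 and Snhg11-ASO replicate 3 did so too (0.188) and no source says what a number marks. Printed values are from the fit without the block, and the block was an alternative.

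The genes and lists were chosen with earlier results of these data known. Some cell type markers are named. The other genes named were the 10 members, the snoRNA genes of Snhg11, annotated genes within 250 kb, genes within 1 Mb at an unadjusted p under 0.05, list genes at that p or with the largest change in their list, and the 5 most similar profiles. Of these, 2 genes are not reported here by name, although they enter the counts. The snoRNA genes of Snhg17 fall within 250 kb. Exon 5, which the ASO targets, differs between annotated Snhg11 transcripts, and the ASO sequences were not used here.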

Additional observations from a re-analysis of the deposited data

How the results depend on the processing

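Over 18 alternatives Snhg11 stayed lower, with an adjusted p from 1.7e-05 to 0.951, and passed the threshold in 4, all with DESeq2. These were a log2 fold change of -2.12 with all samples and of -2.57, -1.94 and -1.96 without Snhg11-ASO replicate 1, 2 or 3. With each sample left out in edgeR it was -2.56 to -1.83. DESeq2 called 256 genes in all, and 339, 275 and 213 without Snhg11-ASO replicate 1, 2 or 3, while edgeR called 0 to 2 with a sample left out (2 without Snhg11-ASO replicate 1). With all samples DESeq2 called 1 of the 63 list genes tested, beside 1.28% of all genes. The cause of the gap between the tools was not tested. With the replicate block, Snhg11 was at -2.10 (unadjusted p = 1.8e-04, adjusted p = 0.350) and the block changed no call. All 18 alternatives called 0 of the 9 neighbours and 0 genes within 1 Mb, and 0 to 2 of the 9 had an unadjusted p under 0.05.

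Ralgapb, Ppp1r16b, Fam83d, Slc32a1, Rprd1b and Tgm2 kept their sign in all 18, but with a sample left out Ralgapb ranged from -0.14 to -0.034, Ppp1r16b from 0.11 to 0.24, Fam83d from 0.23 to 1.60, Slc32a1 from -0.39 to -0.12, Rprd1b from 0.075 to 0.16 and Tgm2 from 0.43 to 0.87. Actr5 turned negative with upper-quartile factors (-0.015), no filter (-0.0020), span offsets (-0.050), these with the replicate block (-0.060) and DESeq2 without Snhg11-ASO replicate 1 (-0.13), and ranged from -0.12 to 0.11 with a sample left out. Tti1 ranged from -0.36 to 0.0023, Vstm2l from -0.033 to 0.26 and Lbp from -1.24 to 0.28, and Lbp was at 0.012 and 0.21 in DESeq2 without Snhg11-ASO replicate 2 or 3. The difference in the antisense share of Snhg11, -0.0050 percentage points, ranged from -0.0223 to 0.0272 with a sample left out. With 3 samples a group, changes of neighbours smaller than their intervals were not detectable.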
